A study of Mus musculus with 8 samples.

Results

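The nuclear-encoded genes of oxidative phosphorylation were described in the dLGN (dorsal lateral geniculate nucleus, where the thalamus receives input from the retina) of mice with and without the TWEAK receptor Fn14. Members were taken by symbol from the deposited matrix of 23116 genes, as those starting with Ndufa, Ndufb, Ndufc, Ndufs, Ndufv, Uqcr, Cox4, Cox5, Cox6, Cox7, Cox8 or Atp5, with Sdha, Sdhb, Sdhc, Sdhd and Cyc1, and without the assembly factors starting with Ndufaf and pseudogenes ending in -ps. This gave 87 genes. By the known place of their products, 36 belong to complex I, 4 to complex II, 9 to complex III, 19 to complex IV and 15 to complex V. Ndufa4, named for complex I, was placed in complex IV, where its product resides. The remaining 4 are Cox7a2l, Atp5s, Atp5sl and Cox4nb. Cox7a2l is known as a factor associated with supercomplexes of complexes III and IV. Atp5s and Atp5sl are not subunits of the synthase. Cox4nb, the neighbour of Cox4i1 now named Emc8, encodes a subunit of the endoplasmic reticulum membrane complex. Subunits encoded by mitochondrial DNA were not analysed here.

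Total RNA came from 4 Fn14 WT and 4 Fn14 KO mice, all C57BL/6J littermates of both sexes on postnatal day 27 under standard housing, and the study compared KO with WT. Each mouse was a replicate of its own, the dLGN was cut by eye from coronal sections, and ribosomal RNA was depleted. The sources used here give neither the design of the Fn14 allele nor the sex of each animal. Values are deposited TPM (read counts scaled by transcript length and then to an equal total), and libraries are named WT 1 to WT 4 and KO 1 to KO 4.

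Oxidative phosphorylation passes electrons from NADH (complex I) and succinate (complex II) through ubiquinone, complex III and cytochrome c to oxygen at complex IV, and ATP synthase (complex V) uses the proton gradient this builds. Neurons draw most of their ATP from this chain, and its subunits are encoded in the nucleus except for a few made inside the mitochondrion. Several complex IV subunits have a common isoform and a second isoform known from muscle, testis or lung, and subunit c of the synthase has 3 genes that encode the same mature protein.

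Upstream sequence is shown for 8 members. Sdha, Ndufa10 and Atp5b were far above the rest of the libraries in WT 1 and WT 2. Cox6a1 was taken only as an example with an NRF1 core. The isoform pairs Cox6b1 with Cox6b2 and Cox8a with Cox8b were taken because the rare isoform was lower in WT 1 and WT 2. Each is the stretch of up to 250 bases before the transcript start in RefSeq (GRCm38.p6) that lies outside the GENCODE gene model, written 5′ to 3′ on the gene's strand. Capitals mark the letters of a motif that was searched for, namely CGCATGCG (the NRF1 core) and CCAAT or its complement ATTGG (the CCAAT box).
Sdha, chr13:74350281-74350490, minus strand: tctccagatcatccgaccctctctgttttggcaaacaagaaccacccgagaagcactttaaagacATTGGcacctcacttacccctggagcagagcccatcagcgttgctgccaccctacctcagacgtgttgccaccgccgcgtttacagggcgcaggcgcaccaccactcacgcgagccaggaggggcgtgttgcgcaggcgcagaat
Ndufa10, chr1:92473861-92474008, minus strand: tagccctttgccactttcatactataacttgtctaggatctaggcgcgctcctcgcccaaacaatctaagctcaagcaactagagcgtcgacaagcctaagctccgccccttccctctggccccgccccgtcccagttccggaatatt
Atp5b, chr10:128083057-128083272, plus strand: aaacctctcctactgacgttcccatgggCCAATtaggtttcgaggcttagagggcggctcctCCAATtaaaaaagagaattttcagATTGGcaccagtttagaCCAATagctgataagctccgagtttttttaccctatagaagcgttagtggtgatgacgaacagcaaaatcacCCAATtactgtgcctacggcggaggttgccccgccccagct
Cox6a1, chr5:115348982-115349208, minus strand: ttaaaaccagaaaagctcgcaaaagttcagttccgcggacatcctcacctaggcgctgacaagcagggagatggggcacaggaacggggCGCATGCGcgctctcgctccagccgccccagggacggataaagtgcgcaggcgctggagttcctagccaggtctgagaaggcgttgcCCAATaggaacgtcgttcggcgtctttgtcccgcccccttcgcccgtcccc
Cox6b1, chr7:30626152-30626364, minus strand: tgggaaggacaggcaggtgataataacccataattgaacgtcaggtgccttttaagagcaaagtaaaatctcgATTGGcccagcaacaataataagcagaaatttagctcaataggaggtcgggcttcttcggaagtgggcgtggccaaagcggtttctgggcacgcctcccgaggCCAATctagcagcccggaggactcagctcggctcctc
Cox6b2, chr7:4753095-4753344, minus strand: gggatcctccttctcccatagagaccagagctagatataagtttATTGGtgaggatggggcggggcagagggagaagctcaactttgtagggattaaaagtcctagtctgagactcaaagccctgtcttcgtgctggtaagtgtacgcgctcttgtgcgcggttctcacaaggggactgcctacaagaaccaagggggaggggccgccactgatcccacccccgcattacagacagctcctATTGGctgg
Cox8a, chr19:7217617-7217866, minus strand: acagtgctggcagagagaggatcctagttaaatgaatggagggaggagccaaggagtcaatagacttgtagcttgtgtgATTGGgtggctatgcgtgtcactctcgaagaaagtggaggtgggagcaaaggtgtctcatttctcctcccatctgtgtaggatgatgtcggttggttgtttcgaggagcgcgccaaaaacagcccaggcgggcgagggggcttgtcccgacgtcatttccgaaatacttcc
Cox8b, chr7:140900447-140900696, minus strand: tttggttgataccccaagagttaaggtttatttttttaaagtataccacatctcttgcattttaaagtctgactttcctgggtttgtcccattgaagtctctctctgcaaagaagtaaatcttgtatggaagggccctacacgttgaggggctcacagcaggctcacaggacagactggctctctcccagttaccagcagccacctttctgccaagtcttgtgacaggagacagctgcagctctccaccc
The stretch before Atp5b held 5 CCAAT boxes, those before Cox6b1 and Cox6b2 held 2 each, those before Sdha, Cox6a1 and Cox8a held 1 each, and those before Ndufa10 and Cox8b held none. The NRF1 core stood before Cox6a1, which was chosen for it, and before none of the others shown.

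The libraries did not fall into their 2 labelled groups. Tnfrsf12a, the gene for Fn14, was at 4.78 TPM in WT 1, 5.48 in WT 2, 3.67 and 0.82 in WT 3 and WT 4, and 2.95, 1.12, 1.32 and 1.86 TPM in KO 1 to KO 4. The library labelled WT 4, called WT 4 below, thus lay under every KO library and went against its label in this gene. These are low values at unknown depth, and the design of the allele is not given, so they cannot decide whether the label is right. In limma KO minus WT for Tnfrsf12a was −0.63 (SE 0.43, adjusted p = 0.452). Mbp, a main myelin protein, was above 1000 TPM in WT 1 and WT 2 alone, at 11153 TPM in WT 1 and 13566 in WT 2, against 34.4 to 51.3 TPM in the other 6. The summed TPM of 8 mature oligodendrocyte markers was 27591 TPM in WT 1 and 34718 in WT 2, against 61.9 to 94.9 TPM in the other 6, with Opalin listed at 0 in some libraries. The sum of 10 mature neuron markers was 5566 TPM in WT 1 and 4898 in WT 2, against 876 to 1849 TPM in the other 6. That of 9 young neuron markers, genes known from neurons before and around birth, was 1643 TPM in WT 1 and 1613 in WT 2, against 10239.5 to 13551 TPM in the other 6, all labelled as postnatal day 27. The sum of 5 astrocyte markers was 1744 TPM in WT 1 and 1702 in WT 2, against 327 to 642 TPM in the other 6. Slc1a2 made up most of it in WT 1 and WT 2, at 1024 and 907 TPM, against 101 to 148 TPM in the other 6. Of the 5, 3 lay above the other 6 in both libraries, and Slc1a3 and Aldh1l1 lay within their range. The sum of 9 microglia markers was 329 TPM in WT 1 and 369 in WT 2, against 146 to 178 TPM in the other 6. Endothelial and pericyte markers summed to 267 to 362 TPM. Choroid plexus markers summed to 26.2, 21.6, 128 and 41.7 TPM in WT 1 to WT 4, and 473, 158, 54.8 and 91 TPM in KO 1 to KO 4, and erythrocyte markers to 755, 889, 999.5 and 685 TPM in WT 1 to WT 4, and 3394, 1114, 666 and 741 TPM in KO 1 to KO 4, both highest in KO 1. The thalamic relay marker sum was 1453 TPM in WT 1, 1338 in WT 2, 406 and 1847 in WT 3 and WT 4, and 1597, 1790.5, 1174 and 2243 TPM in KO 1 to KO 4, with WT 3 the lowest. Its 8 genes did not move alike: in WT 1 and WT 2, 2 lay above the other 6, 2 below and 4 within. Rora was at 628 and 529 TPM there, against 13.9 to 101 TPM in the other 6. Lhx2 was at 3.47 and 4.18 TPM, against 10.1 to 111 TPM. The part of this split in the results below was not tested, and in bulk tissue fewer cells of a type and less RNA per cell cannot be told apart. No extraction or sequencing batch is given in the labels, so none could be compared.

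The members were among the abundant transcripts of the tissue. Their mean over the 8 libraries was above 100 TPM for 60, between 20 and 100 TPM for 16 and below 20 TPM for 11. Atp5b, the catalytic beta subunit of the synthase, had the highest mean at 1168 TPM and ranked 53 of the 23116 genes. Next were Atp5a1, its alpha partner, at 701 TPM, Cox4i1, the common subunit 4 of cytochrome oxidase, at 699.8 TPM, Atp5g3, a subunit c gene, at 522 TPM, and Cox8a, the common subunit 8, at 453 TPM. At the low end stood the isoforms known from other tissues. Ndufs5, an accessory subunit of complex I, was listed at 0 in all 8 libraries, which in a TPM file can be a failed estimate, and it is not read as absence. In the GENCODE annotation, 39 of the 87 members overlap another gene, and 7 pseudogenes are named after 5 of them. The sources used here do not say how the authors' counting treated such reads. Of the 87 members, 84 had a mean of at least 1 TPM and were tested, and Ndufs5, Cox8b and Cox8c were not.

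Together the 87 members took up 19413, 19893, 14106 and 14913 TPM in WT 1 to WT 4, and 15007, 15369, 14298 and 12018 TPM in KO 1 to KO 4, or 2.00% and 2.05% of all TPM in WT 1 and WT 2, 1.42% to 1.54% in WT 3, WT 4 and KO 1 to KO 3, and 1.21% in KO 4. WT 1 and WT 2 were the highest and KO 4 the lowest. The group means were 17081 ± 2994 TPM for WT and 14173 ± 1504 for KO (SD, n = 4 per group). The groups overlapped, since WT 3 and WT 4 lay within the KO range.

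**Figure D1:**
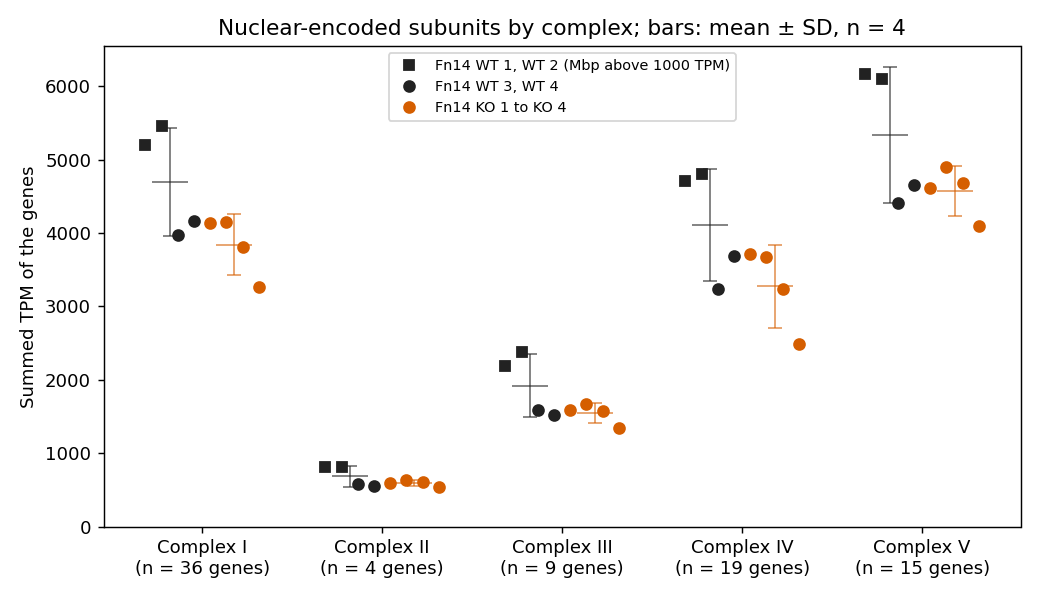
Summed TPM of the members of each complex (y axis) in each library, by group (x axis), with the mean and SD of the 4 libraries beside each group. In all 5 complexes WT 1 and WT 2 (squares, Mbp above 1000 TPM) stand above the other 6 libraries, and KO 4 is the lowest.

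Between KO and WT no member passed. Limma called 0 of 15967 genes higher and 0 lower at an adjusted p of 0.05 (0% in either direction), and the smallest adjusted p of a member was 0.429. Over the whole table, 851 genes were higher and 372 lower at p under 0.05 before adjustment. Of the 84 members, 6 were lower at that level (7.14%, against 2.33% of all tested genes) and 0 were higher (against 5.33%). The 6 were Ndufa4, Uqcrq, Cox7b, Ndufa6, Ndufb4 and Cox8a, from complexes I, III and IV. The count of 6 was 2 without WT 1, 0 without WT 2, 16 without WT 3, 13 without WT 4, 1 without KO 3 and 0 without KO 4. With array weights, which set WT 3 and WT 4 at 0.13 and 0.138, limma called 47 members lower and 3 higher, against 23.8% and 41.1% of all tested genes.

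The direction was shared more widely than any call. The KO minus WT difference on the log2(TPM + 1) scale was below 0 for 75 of the 84 members (89.3%), against 39.9% of all tested genes, with a median of −0.25 for the members and 0.10 for all genes. Without WT 1 and WT 2, 54 members were below 0 (64.3%, against 50.7% of all genes), with a median of −0.05 for the members and 0.00 for all genes (−0.003). Groups did not overlap for 3 members lower in KO (3.57%, against 0.921% of all tested genes), namely Ndufa10, Ndufa6 and Uqcrq, and for 0 tested members higher in KO (against 2.42%). The median of all genes moved from 0.10 to 0.02 with trimmed-mean (TMM) factors and to 0.00 (0.002) with quantile normalization, and the members' median was then −0.35 and −0.27.

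**Figure D2:**
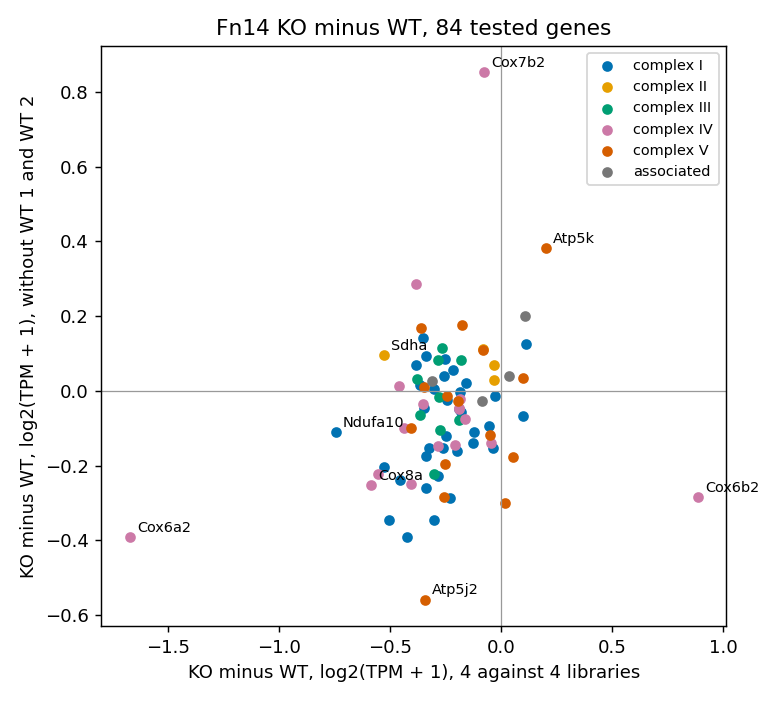
KO minus WT difference in log2(TPM + 1) of the 84 tested members with all 8 libraries (x axis) and without WT 1 and WT 2 (y axis), by complex. Most points lie left of 0 on the x axis and scatter about 0 on the y axis, with medians of −0.25 and −0.05.

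By libraries with Mbp above 1000 TPM against the rest, 52 of the 84 members had both WT 1 and WT 2 above all 6 other libraries (61.9%), against 22.5% of all tested genes, and 2 had both below (2.38%, against 40.5%). The remaining 30 overlapped. The shares of all tested genes depended on the scaling. With TMM factors they were 29.1% above and 31.8% below, beside 63 members above and 1 below. With quantile normalization they were 29.3% and 29.4%, beside 51 members above and 2 below. A gap of over 1.5 times between the lower of WT 1 and WT 2 and the highest of the other 6 was seen for 10 members (11.9%), near the 9.44% of all tested genes. The median log2 ratio of WT 1 and WT 2 to the median of the other 6 was 0.36 over the 84 members. It was −0.23 over 13303 tested genes with a coding length, so a typical gene was lower in WT 1 and WT 2 in deposited TPM. The split comes from a measured gene and is no group of the study, so it carries no test. The shift was uneven within complexes: it took in all 7 core subunits of complex I and 14 of 28 accessory ones, all 9 of complex III, 2 of 4 of complex II, 11 of 17 of complex IV and 8 of 15 of complex V.

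**Figure D3:**
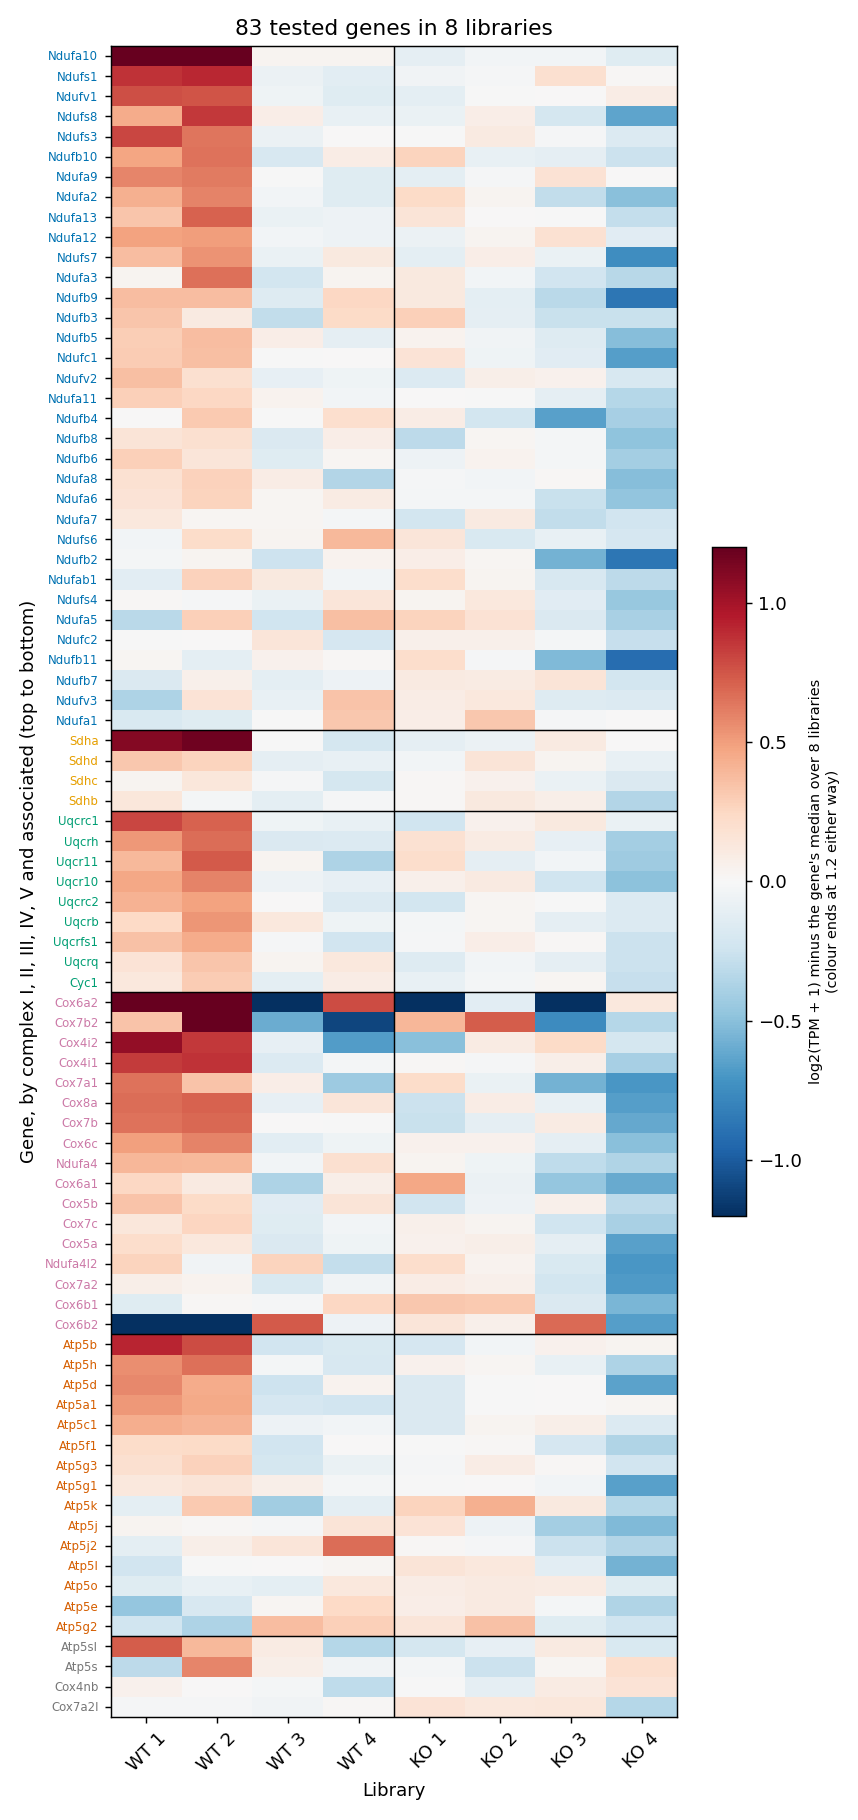
Level of 83 of the 84 tested members (rows, by complex) in each library (columns) as log2(TPM + 1) minus the gene's median over the 8 libraries. WT 1 and WT 2 are red for most genes, and KO 4 is blue for most. Over all 84, both lay above all others for 52, and KO 4 was the lowest library for 57.

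Complex I summed to 5200.0, 5455, 3966 and 4167 TPM in WT 1 to WT 4, and 4140.2, 4147, 3813 and 3265 TPM in KO 1 to KO 4. The group means were 4697 ± 740.0 TPM for WT and 3841 ± 415 for KO (SD, n = 4 per group). The groups overlapped, with WT 1 and WT 2 the highest libraries. Of its 35 tested members, 33 were below 0 in KO (median −0.26). Without WT 1 and WT 2 it was 25 (median −0.09). The mean of WT 1 and WT 2 over the median of the other 6 was 1.68 for the sum of the 7 core subunits, which carry the electrons, and 1.23 for the sum of the 29 accessory ones.

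Among the core subunits, Ndufv1, the flavin subunit that takes electrons from NADH, was at 257 TPM in WT 1, 253 in WT 2, 144 and 136 in WT 3 and WT 4, and 138, 149, 150.2 and 159.9 TPM in KO 1 to KO 4. Ndufs1, which holds iron-sulfur clusters of the same arm, was at 196 TPM in WT 1, 200.01 in WT 2, 101 and 97.3 in WT 3 and WT 4, and 104, 105, 122 and 108 TPM in KO 1 to KO 4. In both, WT 1 and WT 2 lay far above 6 libraries that differed little among themselves. Their KO minus WT differences were −0.34 (SE 0.24) and −0.35 (SE 0.27), and neither passed. Without WT 1 and WT 2 they were 0.09 and 0.14.

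Ndufa10, an accessory subunit of the nucleoside kinase family, had the widest gap of the 84 between WT 1 and WT 2 and the libraries below them. In GRCm38 it lies on the minus strand of chromosome 1, 92439010 to 92473860. Its level was 319 TPM in WT 1, 285 in WT 2, 125 and 124 in WT 3 and WT 4, and 113, 119, 119 and 109.8 TPM in KO 1 to KO 4. The mean of WT 1 and WT 2 was 2.54 times the median of the other 6. It was also 1 of the 3 members whose groups did not overlap, with the lowest WT library at 124 TPM and the highest KO library at 119 TPM. KO minus WT was −0.75 (SE 0.33, unadjusted p = 0.0517, adjusted p = 0.429), or −0.11 without WT 1 and WT 2.

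Other accessory subunits gave smaller contrasts. Ndufb8, of the membrane arm, was at 266, 274, 212 and 253 TPM in WT 1 to WT 4, and 193, 243, 236 and 171 TPM in KO 1 to KO 4. Ndufa6, of the LYR protein family, was at 105, 112, 94.6 and 99.3 TPM in WT 1 to WT 4, and 91.4, 91.4, 76.95 and 66.5 TPM in KO 1 to KO 4. Its log2 difference came to −0.34 (SE 0.14, unadjusted p = 0.0405, adjusted p = 0.429). Its groups did not overlap, with WT 3 just above KO 1. Ndufb4, a membrane arm subunit, was at 121, 149.97, 119.8 and 138 TPM in WT 1 to WT 4, and 128, 103, 76.2 and 90.8 TPM in KO 1 to KO 4. On the log2 scale, KO minus WT was −0.42 (SE 0.18, unadjusted p = 0.0407, adjusted p = 0.429). Its groups overlapped, with KO 3 and KO 4 the lowest libraries.

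Ndufa1, a small membrane subunit encoded on the X chromosome, was 1 of only 2 tested members below the other 6 libraries in WT 1 and WT 2. Its level was 76.3 TPM in WT 1, 78.2 in WT 2, 86.5 and 109 in WT 3 and WT 4, and 91.7, 109, 85.5 and 86.5 TPM in KO 1 to KO 4, a gap between groups of libraries of less than the spread among the 6. Ndufb7, which faces the intermembrane space, was at 76.6, 90.2, 79.8 and 83.3 TPM in WT 1 to WT 4, and 93.7, 93.2, 96.8 and 74.4 TPM in KO 1 to KO 4. KO minus WT came to 0.11 (SE 0.13) and did not pass.

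Complex II, which also belongs to the citric acid cycle, summed to 809, 807, 574 and 551 TPM in WT 1 to WT 4, and 592, 629, 614 and 534 TPM in KO 1 to KO 4. The 4 subunits did not move alike. Sdha, the flavoprotein that oxidises succinate, lies on the minus strand of chromosome 13, 74322254 to 74350280 on GRCm38. It was at 292 TPM in WT 1, 306 in WT 2, 135 and 117 in WT 3 and WT 4, and 126, 129.5, 146 and 136 TPM in KO 1 to KO 4. The mean of WT 1 and WT 2 was 2.26 times the median of the other 6. Sdhb, its iron-sulfur partner, was at 209 TPM in WT 1, 188 in WT 2, 176 and 189 in WT 3 and WT 4, and 193, 207, 201 and 149 TPM in KO 1 to KO 4, with WT 1 the highest library and WT 2 within the range of the others. The 2 membrane anchors Sdhc and Sdhd had ratios of 1.1 and 1.28. The KO minus WT difference was −0.53 (SE 0.33, adjusted p = 0.432) for Sdha and −0.03 (SE 0.14, adjusted p = 0.909) for Sdhb, and 0.10 and 0.03 without WT 1 and WT 2.

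Complex III was the most uniform: all 9 members were above the other 6 libraries in WT 1 and WT 2, and all 9 were below 0 in KO (median −0.28, or −0.02 without those libraries, with 5 of 9 below 0). It summed to 2193, 2379, 1588 and 1522 TPM in WT 1 to WT 4, and 1589, 1664, 1576 and 1345 TPM in KO 1 to KO 4. Uqcrc1, a core protein of the matrix arm and the most abundant member, was at 418 TPM in WT 1, 390.02 in WT 2, 231 and 225 in WT 3 and WT 4, and 203, 247, 259 and 226 TPM in KO 1 to KO 4. Uqcrh, the hinge protein that helps cytochrome c1 meet cytochrome c, was at 353 TPM in WT 1, 392 in WT 2, 218 and 219.7 in WT 3 and WT 4, and 279, 264, 229.8 and 185 TPM in KO 1 to KO 4. The ratios of WT 1 and WT 2 to the other 6 were 1.77 and 1.66.

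The redox subunits of complex III, Uqcrfs1 and Cyc1, had smaller ratios of WT 1 and WT 2 to the other 6, at 1.34 and 1.21. This was not particular to them, since the small subunits Uqcrb and Uqcrq had 1.35 and 1.25. Uqcrfs1, the Rieske iron-sulfur protein, was at 213 TPM in WT 1, 227 in WT 2, 164 and 141 in WT 3 and WT 4, and 165, 176, 168 and 139 TPM in KO 1 to KO 4. Cyc1, cytochrome c1, was at 164 TPM in WT 1, 186 in WT 2, 139 and 161 in WT 3 and WT 4, and 142, 148, 153 and 124 TPM in KO 1 to KO 4, with WT 1 only just above WT 4. Uqcrq, a small subunit, was the member of this complex with the smallest p. It was at 206, 231, 188 and 201 TPM in WT 1 to WT 4, and 165, 179, 171 and 153 TPM in KO 1 to KO 4. The groups did not overlap. KO minus WT was −0.30 (SE 0.12, unadjusted p = 0.0358, adjusted p = 0.429).

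Complex IV summed to 4705, 4799, 3241 and 3689.6 TPM in WT 1 to WT 4, and 3708, 3670.2, 3242 and 2490.1 TPM in KO 1 to KO 4, and KO 4 was further below the other libraries here than in any other complex. The means were 4109 ± 766 TPM for WT and 3277 ± 566 for KO (SD, n = 4 per group), with overlap. Cox4i1 lies on the plus strand of chromosome 8, 120668222 to 120674207. It was at 1079 TPM in WT 1, 1096 in WT 2, 536 and 592 in WT 3 and WT 4, and 607, 598, 634 and 456 TPM in KO 1 to KO 4, and the WT 1 and WT 2 mean was 1.83 times the median of the other 6. Cox4nb, which overlaps it on the other strand, was at 39.03, 37.8, 37.1 and 30.4 TPM in WT 1 to WT 4, and 37.7, 34.9, 40.5 and 42.3 TPM in KO 1 to KO 4, and there WT 1 and WT 2 were within the range of the others.

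The members of complex IV with the smallest p were Ndufa4, Cox7b and Cox8a. Ndufa4 was at 418, 416, 310.03 and 363 TPM in WT 1 to WT 4, and 324, 307, 257 and 247 TPM in KO 1 to KO 4. Its log2 difference came to −0.41 (SE 0.16, unadjusted p = 0.0348, adjusted p = 0.429). Cox7b, a small membrane subunit, was at 191, 196, 122 and 121 TPM in WT 1 to WT 4, and 101, 112, 129.7 and 78.7 TPM in KO 1 to KO 4. On the log2 scale, KO minus WT was −0.56 (SE 0.23, unadjusted p = 0.0395, adjusted p = 0.429). Cox8a was at 659, 678, 387 and 458 TPM in WT 1 to WT 4, and 347, 440.1, 389.98 and 261 TPM in KO 1 to KO 4. KO minus WT came to −0.59 (SE 0.24, unadjusted p = 0.0422, adjusted p = 0.429). In each the groups overlapped, WT 1 and WT 2 were the highest and KO 4 the lowest library. Without WT 1 and WT 2 the differences were −0.25, −0.22 and −0.25.

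The other common subunits of complex IV varied. Cox6c was at 372 TPM in WT 1 and 401 in WT 2, against 186 to 275 TPM in the other 6. Cox5a, on the matrix side of the enzyme, was at 349.6 TPM in WT 1, 329.6 in WT 2, 269 and 291 in WT 3 and WT 4, and 314, 317, 279.7 and 191 TPM in KO 1 to KO 4, with WT 1 and WT 2 just above the others. Cox6b1, the common subunit that faces the intermembrane space, was at 359 TPM in WT 1, 399.9 in WT 2, 394 and 472 in WT 3 and WT 4, and 497, 494, 352 and 272 TPM in KO 1 to KO 4. Cox7a2, the common subunit 7a, was at 283 TPM in WT 1, 277 in WT 2, 236 and 260.5 in WT 3 and WT 4, and 286, 279, 229.98 and 167 TPM in KO 1 to KO 4. For Cox6b1 and Cox7a2, WT 1 and WT 2 lay within the range of the other 6. Cox6a1, the common subunit 6a, was at 322, 293, 210.4 and 286 TPM in WT 1 to WT 4, and 375, 258, 197 and 179 TPM in KO 1 to KO 4, where KO 1 was the highest library and KO 4 the lowest.

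Complex V summed to 6162, 6104, 4408 and 4659 TPM in WT 1 to WT 4, and 4615, 4906, 4688 and 4099 TPM in KO 1 to KO 4, with means of 5333 ± 929 TPM for WT and 4577 ± 342 for KO (SD, n = 4 per group) and overlap. Its parts differed. The mean of WT 1 and WT 2 over the median of the other 6 was 1.59 for the summed F1 head, which holds the catalytic sites. It was 1.18 for the peripheral stalk, 1.07 for the c ring and 0.909 for the small membrane subunits Atp5j2, Atp5k and Atp5l. None of these small membrane subunits lay above the others in both libraries. Their log2 ratios were −0.02, 0.11 and −0.13. These were not low beside the median of −0.23 over 13303 tested genes with a coding length. Genes within a part also differed. In the head, 4 of 5 lay above the others in both libraries, but Atp5e had a ratio of 0.771. The ratio for the median TPM of the head was 1.04. In the stalk, 2 of 4 lay above, and the ratio ran from 0.862 for Atp5o to 1.59 for Atp5h. Atp5b lies on the plus strand of chromosome 10, 128083273 to 128090391. It was at 1906 TPM in WT 1, 1742 in WT 2, 861 and 891 in WT 3 and WT 4, and 879, 988, 1045 and 1033 TPM in KO 1 to KO 4. Atp5a1 was at 956 TPM in WT 1, 912 in WT 2, 579.8 and 567 in WT 3 and WT 4, and 589, 661, 668 and 674 TPM in KO 1 to KO 4. These partners in the head were highest in WT 1 and WT 2, at 1.94 and 1.49 times the median of the other 6, and were not lowest in KO 4.

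The members of complex V with the smallest p above 0 were Atp5k and Atp5o, and neither passed. Atp5k, subunit e, was at 45.1, 61.4, 36.5 and 45.3 TPM in WT 1 to WT 4, and 59.1, 66.5, 53.2 and 38.6 TPM in KO 1 to KO 4. KO minus WT was 0.20 (SE 0.21, adjusted p = 0.593). Atp5o, the oligomycin sensitivity-conferring protein that joins stalk and head, was at 327, 338, 332 and 394 TPM in WT 1 to WT 4, and 385, 389, 387 and 326 TPM in KO 1 to KO 4. Its log2 difference came to 0.10 (SE 0.14, adjusted p = 0.693). Without WT 1 and WT 2 they were 0.38 and 0.04. Groups overlapped for both.

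The 3 subunit c genes differed in pattern although their summed TPM was between 942 and 1053 in 7 libraries and 767 in KO 4. Atp5g3 was at 591 TPM in WT 1, 629 in WT 2, 448 and 488 in WT 3 and WT 4, and 511, 549.5, 523 and 439.6 TPM in KO 1 to KO 4. Atp5g2 was at 180.2 TPM in WT 1, 164 in WT 2, 275 and 259.7 in WT 3 and WT 4, and 236, 271, 192 and 179.98 TPM in KO 1 to KO 4, with WT 1, WT 2, KO 3 and KO 4 the lowest libraries. Atp5g1 was at 253, 258, 243 and 229 TPM in WT 1 to WT 4, and 232, 232, 226 and 147 TPM in KO 1 to KO 4, close in 7 libraries and lowest in KO 4. Of their summed TPM, Atp5g3 took 57.7, 59.8, 46.3 and 49.97% in WT 1 to WT 4, and 52.2, 52.2, 55.6 and 57.3% in KO 1 to KO 4. Atp5g2 took 17.6, 15.6, 28.5 and 26.6% in WT 1 to WT 4, and 24.1, 25.8, 20.4 and 23.5% in KO 1 to KO 4. In WT 1 and WT 2 the share of Atp5g3 was above, and that of Atp5g2 below, all other libraries. The share of Atp5g1 was 24.7, 24.6, 25.2 and 23.4% in WT 1 to WT 4, and 23.7, 22.05, 24.04 and 19.2% in KO 1 to KO 4. Between KO and WT, the exact permutation test (two-sided, 70 assignments) gave p = 0.0857 for Atp5g1 (adjusted p = 0.386 over 9 shares), 0.714 for Atp5g2 and 0.8 for Atp5g3.

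Isoforms known from other tissues were rare here. The share of an isoform in the summed TPM of its pair does not depend on the scaling of a library, and 9 shares were compared. Cox8b, the muscle isoform of subunit 8, lies on the minus strand of chromosome 7, 140898945 to 140900446. It was listed at 0 TPM in WT 1, 0 in WT 2, 0.66 and 0.59 in WT 3 and WT 4, and 0.95, 1.45, 1.28 and 1.63 TPM in KO 1 to KO 4, below 2 TPM throughout. Its share with Cox8a was 0, 0, 0.17 and 0.129% in WT 1 to WT 4, and 0.273, 0.328, 0.327 and 0.62% in KO 1 to KO 4. The means were 0.0747 ± 0.08796% in WT and 0.387 ± 0.157% in KO (SD, n = 4 per group), and all 4 KO libraries were above all 4 WT libraries. The exact permutation p was 0.0286, the smallest that 4 against 4 allows, and the adjusted p over the 9 shares was 0.257, so the difference did not pass. It was 0.312 percentage points with all libraries and 0.235 to 0.350 with each left out in turn, and 0.238 without both WT 1 and WT 2.

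Cox6b2, the testis isoform of subunit 6b, was the member furthest below the others in WT 1 and WT 2, at 1.64 TPM in WT 1, 0.56 in WT 2, 12.5 and 6.79 in WT 3 and WT 4, and 7.96, 7.46, 11.99 and 4.14 TPM in KO 1 to KO 4. Its share with Cox6b1 was 0.455, 0.14, 3.08 and 1.42% in WT 1 to WT 4, and 1.57, 1.49, 3.298 and 1.502% in KO 1 to KO 4, while Cox6b1 itself was within the range of the others in those libraries. The difference in share did not pass (exact p = 0.429). KO minus WT was 0.89 (SE 0.67, adjusted p = 0.476) for its level, the highest of the 84, and −0.28 without WT 1 and WT 2.

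Among the other isoforms, Cox6a2, Cox4i2 and Cox7a1 were highest in WT 1 and WT 2. Cox6a2, the muscle isoform of subunit 6a, was at 6.91 TPM in WT 1, 19.7 in WT 2, 0 and 3.67 in WT 3 and WT 4, and 0, 1.49, 0 and 1.96 TPM in KO 1 to KO 4. Its share of the pair was 2.098, 6.29, 0 and 1.27% in WT 1 to WT 4, and 0, 0.575, 0 and 1.08% in KO 1 to KO 4 (exact p = 0.171). It overlaps Itgad on the opposite strand, which was at 1.41 TPM in WT 1 and 1.75 in WT 2, against 0.05 to 0.22 TPM in the other 6. Cox4i2, the lung isoform of subunit 4, was at 3.23 TPM in WT 1, 2.68 in WT 2, 0.91 and 0.28 in WT 3 and WT 4, and 0.44, 1.18, 1.39 and 0.76 TPM in KO 1 to KO 4, which is 0.047% to 0.299% of the pair (exact p = 0.686). Cox7a1, the muscle isoform of subunit 7a, was at 11.2 TPM in WT 1, 8.8 in WT 2, 7.17 and 4.71 in WT 3 and WT 4, and 8.03, 6.34, 4.23 and 3.76 TPM in KO 1 to KO 4, and its share was highest in WT 1 at 3.80% and lowest in WT 4 at 1.78% (exact p = 0.257). Ndufa4l2, a paralogue of Ndufa4, was at 4.98, 3.81, 4.97 and 3.06 TPM in WT 1 to WT 4, and 4.75, 4.11, 3.37 and 2.05 TPM in KO 1 to KO 4 (exact p of its share 0.714). Cox7b2, a testis isoform, was at 1.71, 5.93, 0.42 and 0 TPM in WT 1 to WT 4, and 1.82, 2.54, 0.27 and 0.69 TPM in KO 1 to KO 4. Cox8c, also known from testis, was listed at 0 in 7 libraries and at 0.40 TPM in KO 4.

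**Figure D4:**
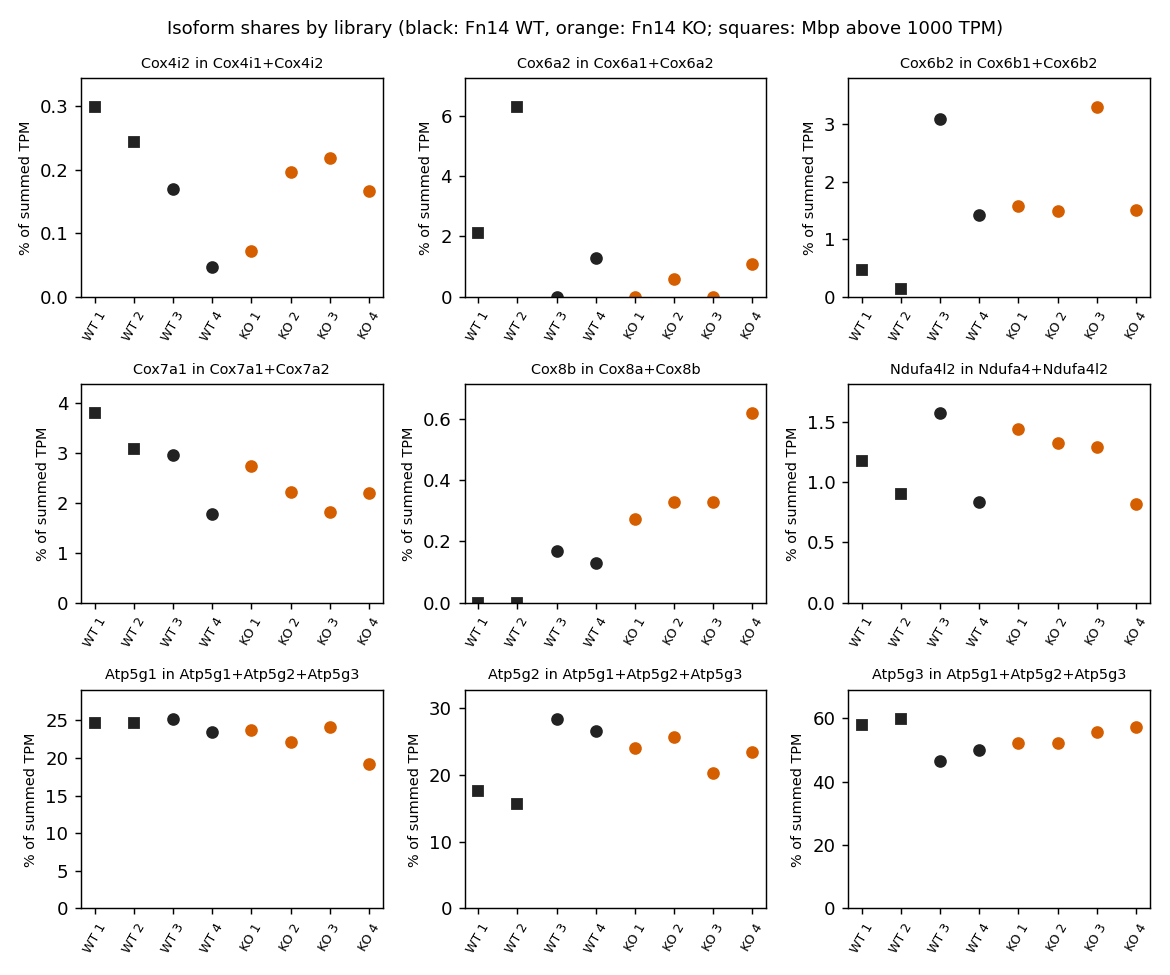
Share of each isoform in the summed TPM of its isoforms (y axis, percent) in each of the 8 libraries (x axis). WT 1 and WT 2 (squares) are at the low end for Cox6b2, Cox8b and Atp5g2 and at the high end for Cox4i2, Cox6a2, Cox7a1 and Atp5g3, and Cox8b is higher in all 4 KO than in all 4 WT libraries.

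KO 4 stood apart within its group. It was the lowest of the 8 libraries for 57 of the 84 tested members (67.9%, against 6.62% of all tested genes) and the lowest of the 4 KO libraries for 64 (76.2%, against 20.5%). The count of 57 was 59 with TMM factors and 60 with quantile normalization. The median ratio of KO 4 to the median of KO 1 to KO 3 was 0.781, and it was under 0.8 for 47 of 83 members with a value. All 11 common subunits of complex IV were lowest in KO 4. Atp5b, Atp5a1, Sdha and Ndufs1 were not. Low values in KO 4 were also seen outside the members: it was the lowest of the 8 libraries for 28 of 76 mitochondrial ribosome proteins, 4 of 8 electron carriers and supercomplex factors and 6 of 28 assembly factors. The count was 1 of 18 for the citric acid cycle and 0 of 16 for regulators of mitochondrial gene expression. Without KO 4, the median KO minus WT difference of the members was −0.17, with 66 of 84 below 0 and 0 at an unadjusted p under 0.05.

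Short members were lower in KO 4 than long ones, and most members are short (50 of the 84 tested). For 50 members with under 500 coding bases the median log2 ratio of KO 4 to the median of KO 1 to KO 3 was −0.43, and for 11 with at least 1000 it was 0.03 (Spearman's rho 0.484 across 84 genes, which share their libraries). Over all tested genes with a coding length it was −0.22 for 1066 short and 0.11 for 9234 long genes (rho 0.281, 13303 genes). For WT 1 and WT 2 against the median of the other 6, the values were 0.28 for the short and 0.82 for the long members (rho 0.239), and −0.30 and −0.24 over all genes (rho −0.02). Role and length did not always go together in complex I. The accessory subunits Ndufa10, Ndufa9 and Ndufv3 have 1065, 1131 and 1404 coding bases, and their log2 ratios of KO 4 to the median of KO 1 to KO 3 were −0.12, 0.02 and −0.25. The core subunits Ndufs7, Ndufs8, Ndufv2 and Ndufs3 have 672, 636, 744 and 789, and theirs were −0.67, −0.56, −0.25 and −0.165. For WT 1 and WT 2 over the median of the other 6, the log2 ratios were 1.34, 0.62 and −0.08 for these accessory subunits. For these core subunits they were 0.53, 0.74, 0.36 and 0.73. The part of length in these differences was not tested.

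**Figure D5:**
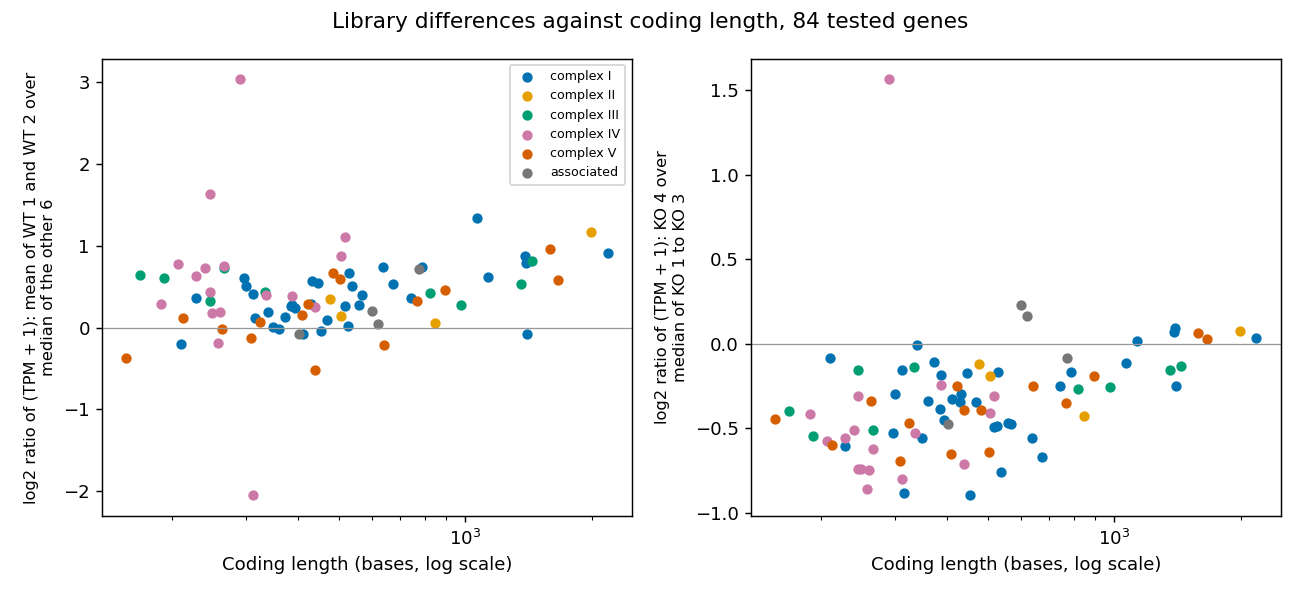
Log2 ratio of (TPM + 1) of WT 1 and WT 2 to the median of the other 6 (left) and of KO 4 to the median of KO 1 to KO 3 (right) against coding length (log axis) for the 84 tested members, by complex. In the right panel short genes lie mostly below 0 (median −0.43) and genes of at least 1000 bases near 0 (median 0.03).

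Genes that work with the chain were described from 5 lists, in each of which limma called 0 genes in either direction. Of 18 tested genes of the citric acid cycle, 16 were below 0 in KO (median −0.30), and 6 without WT 1 and WT 2 (median 0.06). In WT 1 and WT 2, 16 of 18 lay above the other 6 libraries, against 22.5% of all tested genes. Of all tested genes, 39.9% were below 0 in KO, and 50.7% without WT 1 and WT 2. Idh3g, a subunit of NAD-dependent isocitrate dehydrogenase, had a difference of −0.38 (SE 0.17). Among 8 electron carriers and supercomplex factors, 7 were below 0 (median −0.20, or 0.02 without those libraries), and Cycs, cytochrome c itself, was at 132 TPM in WT 1 and 127 in WT 2, against 57.9 to 74.7 TPM in the other 6.

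The lists of genes that build the chain had medians nearer 0. Over all tested genes the median was 0.10, and 39.9% were below 0. WT 1 and WT 2 lay above the other 6 libraries for 22.5% of all tested genes and below for 40.5%. Of 28 tested assembly factors, 18 were below 0 and 10 above, with a median of −0.06, and in WT 1 and WT 2 11 lay above and 6 below the others. Cox18, which inserts a complex IV subunit into the membrane, had a difference of 0.36 (SE 0.14, unadjusted p = 0.0274, adjusted p = 0.429), and Lyrm7, which helps insert the Rieske protein, −0.55 (SE 0.27). Of 76 mitochondrial ribosome proteins, 36 were below 0 and 40 above, with a median of 0.01, and 13 lay above and 13 below in WT 1 and WT 2. Mrpl11 had a difference of 0.41 (SE 0.12, unadjusted p = 0.00954, adjusted p = 0.429).

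Regulators of mitochondrial gene expression went in both directions, in shares near those of all tested genes. Of 16 tested, 9 were above 0 in KO and 7 below (median 0.15, or 0.06 without WT 1 and WT 2). In WT 1 and WT 2, 5 lay above and 8 below the others. Of all tested genes, 39.9% were below 0 (median 0.10), and 22.5% lay above and 40.5% below the others in those libraries. Esrra, the oestrogen-related receptor that acts on genes of energy metabolism, was at 106 TPM in WT 1 and 91.1 in WT 2, against 19.02 to 27.4 TPM in the other 6. Its coactivator Ppargc1a was at 49.02 TPM in WT 1 and 39.9 in WT 2, against 11.1 to 34.4 TPM in the other 6. Both were highest in WT 1 and WT 2. Other genes of these receptor and coactivator families on the list did not all follow, and some lay below the other 6 there. Nrf1, a known activator of respiratory genes, was at 17.03 TPM in WT 1 and 21.97 in WT 2, against 26.96 to 34.4 TPM in the other 6. Gabpa, an ETS factor with a like role, was at 17.7 TPM in WT 1 and 18.6 in WT 2, against 20.3 to 25.2 TPM in the other 6. Tfam, which packs mitochondrial DNA and starts its transcription, was at 20.5 TPM in WT 1 and 20 in WT 2, against 23.1 to 30.6 TPM in the other 6. These 3 were lowest in WT 1 and WT 2.

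Promoter letters were compared for the 70 of 87 members with a RefSeq window, which spans 250 bases before to 50 after the start and was searched on both strands. The NRF1 core CGCATGCG was found for 9 members (12.9%), against 3.9% of 11019 tested genes and 1.87% of all 32851 windows. The YY1 core AAGATGGC was found for 11 (15.7%, against 4.5% and 2.75%), the ERR core CAAGGTCA for 4 (5.7%, against 1.4% and 1.56%) and the ETS core CCGGAAG for 16 (22.9%, against 17.0% and 8.86%). CCAAT was found for 31 (44.3%, against 42.8% and 37.41%) and TATAAA for 7 of 70 (against 9.5% and 13.62%). The 39 members above the other libraries in WT 1 and WT 2 held the NRF1 core in 10.3% and the 31 others in 16.1%, and the ERR core in 5.1% and 6.5%. These shares are descriptions of letters and not of binding.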

How the data were processed

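The authors deposited 1 matrix of TPM values for 8 libraries, with a mean column per group that was not used. The tools BWA and edgeR 3.14.0 and the builds GRCm38 and mm10 are named in the submitters' processing notes. The sources used here do not give settings, annotation, strand use or the treatment of shared reads. TPM keeps no depth, so depth is unknown and no counting interval is given. Values in the deposited TPM summed to between 968958 and 997426 per library. They were analysed as log2(TPM + 1), which understates differences of low genes, and the 15967 genes whose mean reached 1 TPM were tested.

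KO was compared with WT, 4 libraries each, with limma 3.58.1 in R 4.3.3 (trend, robust, no covariate, two-sided) and Benjamini-Hochberg adjustment at 0.05 over all tested genes. Every adjusted p not tied to shares is from this fit. Isoform shares were compared by an exact two-sided permutation test that went through all assignments. Spearman's rho was computed with scipy 1.17.1. Limma was first tested on simulated data with known changes. Labelled mice are the replicates.

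The members, lists and marker genes were chosen with earlier results of these data known. Members to name were those of highest mean per complex, smallest p in each direction, catalytic or redox role, isoforms, the largest gaps between WT 1 and WT 2 and the others, and those listed at 0. From the lists, up to 2 genes of smallest p were named. Of the genes these rules name, 2 are not reported here. Genes named beyond this were chosen after their values were seen. All 87 members were placed on GRCm38 with GENCODE M21, 85 by the same symbol. Alternatives were other pseudocounts, filters, scalings, variance models, array weights, a replicate block and leaving out libraries. Same-numbered libraries were checked for pairing.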

Additional observations from a re-analysis of the deposited data

Results flagged for a closer look

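In each group of 4, the gap between an extreme library and its nearest neighbour was divided by the whole range and set against Dixon's 95% critical value. Of 109 groups examined, 7 exceeded it, and chance gives about 1 in 20. The groups share their libraries. All 7 were KO, but WT 1 and WT 2 often lay together above WT 3 and WT 4, and 2 such pairs keep the ratio low. The rule could therefore seldom flag WT, and no conclusion about KO is drawn from the count. KO 4 was the library in 5 of the 7. Atp5g1 in KO had a ratio of 0.932, with KO 4 at 147 TPM and KO 1 to KO 3 at 226 to 232 TPM. Atp5o had 0.927, with KO 4 at 326 TPM against 385 to 389 TPM. Ndufb7 had 0.839, with KO 4 at 74.4 TPM against 93.2 to 96.8 TPM. Cox8c had 1, with KO 4 at 0.40 TPM and the others listed at 0, which fixes the ratio at 1. The Cox8b share had 0.841, with KO 4 at 0.62% against 0.273% to 0.328%. Atp5a1 had 0.845, with KO 1 low at 589 TPM against 661 to 674 TPM. The Cox6b2 share had 0.951, with KO 3 at 3.30% against 1.49% to 1.58%.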

How the results depend on the processing

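The 0 calls among members held under other pseudocounts, filters, scalings, variance models and with each library left out, and ended with array weights, under which 3 members were called higher and 47 lower, with 6569 and 3807 of all genes. Without trend and robust estimation 1 gene was called higher, and without both WT 1 and WT 2, 2 were called lower. Leaving out each library gave 0 to 1 genes called lower. The members' median was −0.31 to −0.17 with each library left out and −0.049 without both WT 1 and WT 2. With TMM factors 63 members were above the others in WT 1 and WT 2 and 1 below, and leaving out each library gave 52 to 58 above and 2 to 5 below. No pairing was seen: deviations of same-numbered libraries correlated at −0.0998 to 0.074, and in no case were same-numbered libraries each other's best match. The replicate block called 0 members and 0 genes, with 8 members at an unadjusted p under 0.05 in place of 6.

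Without both WT 1 and WT 2, differences changed sign for Sdhb (0.029), Sdha (0.095), Uqcrc1 (0.031), Uqcrh (0.11), Cox4i1 (0.014), Atp5b (0.17), Atp5a1 (0.175), Cox6b2 (−0.28), Ndufs1 (0.14), Ndufv1 (0.094), Uqcrfs1 (0.082), Cox4i2 (0.29), Atp5g2 (−0.30), Atp5g3 (0.11), Ndufa1 (−0.066) and Cox7b2 (0.85). Array weights changed it for Sdhb (0.001), Cox4nb (−0.041) and Cox6b1 (0.16), TMM factors for Atp5g2 (−0.078) and a pseudocount of 0.1 TPM for Cox7b2 (0.35). With each library left out, ranges crossed 0 for Atp5g2 (−0.111 to 0.135), Cox6b1 (−0.16 to 0.13), Cox7a2 (−0.255 to 0.002), Cox7b2 (−0.47 to 0.46) and Sdhb (−0.082 to 0.073). Shares in percentage points reversed without both WT 1 and WT 2 for Cox4i2 (0.055), Cox6b2 (−0.285) and Atp5g2 (−4.10), and on the log2 scale for Cox4i2 (0.077). With each library left out they ran from −0.785 to 3.49 for Atp5g2, −1.50 to 2.98 for Atp5g3, −0.074 to 0.01 for Cox4i2 and 0 to 0.247 for Ndufa4l2. The cause of these shifts was not tested.

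Depth per library is unknown, so values of a few TPM, such as those of Tnfrsf12a, Cox8b, Cox4i2 and Cox7b2, have a counting error that cannot be estimated here. With 4 libraries per group, of which WT 1 and WT 2 stand apart, the spread within WT is wide.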
